A study of Homo sapiens with 16 samples.

Results

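The p53 protein is held in check by the products of genes that it switches on itself. Here 9 genes of this circuit were named, namely the p53 relatives TP63 and TP73 and the regulators MDM2, MDM4, PPM1D, RCHY1, CCNG1, PLK2 and PLK3. Their rows were found by gene symbol in the tables of normalized read counts per gene, and 8 of the 9 had a row among 26410 genes. The expression of TP63 is not analysed here.

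The cells were SH-SY5Y, a human neuroblastoma line, in which TRPM2, the gene of a calcium-permeable ion channel, had been targeted with CRISPR. The 2 clones labelled TRPM2 KO (KO11 and KO28) received Cas9 with a guide to TRPM2, and the 2 control clones (Scr13 and Scr16) received Cas9 with a scrambled guide. All 4 clones had also been given a donor vector with TRPM2 homology arms, GFP and a puromycin marker, were selected with puromycin and were grown from single cells. Each clone was sequenced in 2 replicates after 24 h in regular medium (untreated) and in 2 after 24 h with doxorubicin, a drug that breaks DNA, which gives 16 libraries and 4 per group. The sample labels give 0.3 µM doxorubicin, and the design text of the series gives 3 µM. A genotype is thus represented by 2 clones, and the 2 libraries of a clone are not independent of that clone, so the p-values measure the spread between these libraries.

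p53 is a transcription factor that accumulates when DNA is damaged and drives genes of cell cycle arrest, DNA repair and apoptosis. In unstressed cells the ubiquitin ligase MDM2 marks it for degradation, and because MDM2 is itself a p53 target, a rise of p53 activity raises its own inhibitor. Neuroblastoma cells usually retain a working p53 pathway at diagnosis, and MDM2 inhibitors have been studied in this tumor for that reason.

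A response element of p53 consists of a pair of decamer half-sites. The RefSeq windows from 250 bases before to 50 bases after each annotated start site (GRCh38.p14) covered all 9 named genes, and they were searched for the consensus half-site of p53, which reads alike on both strands. A pair was counted where 2 half-sites lay at most 2 bases apart, the core C and G of both were present and at most 3 of 20 letters differed, with at most 2 in either decamer. Such pairs were found in MDM2 and TP73 and in 3.76% of all 27305 genes with a window. A single half-site without a mismatch was found in PLK2 and in 8.06% of all genes, so a match is a description of these letters and is not a binding site shown by these data. The 3 stretches are shown because MDM2 and PLK2 had the largest differences between genotypes after doxorubicin and TP73 has a match and was not called in any comparison, with the half-sites in capitals.
MDM2, chr12:68808883-68808982, + strand: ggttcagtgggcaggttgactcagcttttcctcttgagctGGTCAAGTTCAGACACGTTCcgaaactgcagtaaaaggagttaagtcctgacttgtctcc
TP73, chr1:3690556-3690655, + strand: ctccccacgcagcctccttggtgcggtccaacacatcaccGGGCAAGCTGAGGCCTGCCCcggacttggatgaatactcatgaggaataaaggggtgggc
PLK2, chr5:58460199-58460228, − strand: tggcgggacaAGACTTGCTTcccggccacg
The MDM2 and TP73 stretches lie inside their genes and outside the exons of these genes in GENCODE 29, 84 and 66 bases before an internal start site, and each pair differs from the consensus at 2 of 20 letters. In TP73 a second pair, with 3 mismatches and a spacer of 1 base, overlaps the one shown, at chr1:3690606-3690626. The PLK2 half-site lies 127 bases before the RefSeq start site, in an exon of the GENCODE 29 model. In CCNG1, PPM1D, PLK3, MDM4, RCHY1 and TP63, neither pattern was present in this window.

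The level of TRPM2 itself was looked up first. Without treatment, TRPM2 was at 1.93 and 2.23 normalized CPM (CPM, reads on the gene relative to the size of the library, as normalized by the authors) in KO11, and at 1.41 and 2.19 in KO28. It was at 0.118 and 0.115 in Scr13, and at 0 in both libraries of Scr16. After doxorubicin, TRPM2 was at 1.22 and 1.83 normalized CPM in KO11, at 1.37 and 0.658 in KO28, at 0.0594 and 0.0631 in Scr13, and at 1.33 and 0.390 in Scr16. Every untreated library labelled KO was thus above every untreated Scr library, the opposite of a loss of transcript, on at most 37 reads per library. This order is given without a test, since TRPM2 passed the filter on low values only through the libraries labelled KO. After doxorubicin the groups overlapped (log2 fold change 0.69, SE 0.33, limma adjusted p = 0.249). Reads were counted over all of TRPM2, edited or not, so they cannot decide whether the labels hold. All directions below are therefore given for the libraries labelled KO relative to those labelled Scr.

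Of 10 adrenergic neuroblastoma markers, 8 were abundant in every library. The summed level of the list lay between 6209 and 7413 normalized CPM, and STMN2 had the highest mean, at 1379 to 1838. The exceptions were TH, the gene of tyrosine hydroxylase, which was at 0 to 1.13 normalized CPM, and CHGA, at 0.356 to 26.4. HAND2, a transcription factor of the list, was lower in the libraries labelled KO without overlap in both treatments (1281 to 1324 against 1360 to 1454 untreated, 1491 to 1548 against 1698 to 1765 after doxorubicin). Of 10 mesenchymal markers 9 had a row, and their sum was 584 to 686.6 in KO28, 489.7 to 574.7 in KO11 and 430.0 to 554.6 in the Scr clones. The sums were thus highest in KO28. Of the 9 genes, 4 (FN1, LUM, DCN and COL1A1) were higher in the libraries labelled KO without overlap with Scr in both treatments, and 1, TWIST1, was lower in the same way. Of all genes tested, 4.29% untreated and 6.76% after doxorubicin had groups without overlap and with the libraries labelled KO on top. In either direction the shares were 9.29% and 13.2%, with each treatment taken on its own. DCN in both treatments and LUM after doxorubicin lay under 1 normalized CPM in every Scr library. They passed the filter on low values there only through the libraries labelled KO, so these shares do not apply to them. TWIST1, which had the highest mean over all libraries, was at 160 to 203 in the libraries labelled KO against 253 to 274 in Scr untreated and 177 to 213 against 283 to 325 after doxorubicin. FN1, the gene of fibronectin, was at 167 to 281 against 36.7 to 160 untreated and 145 to 349 against 26.4 to 105 after doxorubicin. LUM, the gene of lumican, was at 8.24 to 12.6 against 0.511 to 3.15 untreated and 9.92 to 16.4 against 0.190 to 0.631 after doxorubicin. DCN, the gene of decorin, was at 1.14 to 4.16 against 0.173 to 0.472 and at 6.34 to 8.04 against 0.297 to 0.760, and COL1A1, a collagen gene, at 10.5 to 21.9 against 1.79 to 9.80 and at 7.43 to 15.5 against 1.51 to 7.41. The part of these marker genes in the differences between genotypes below was not tested. Of 6 markers of basal epithelium, the tissue in which TP63 is best known, 2 had a row, and their sum stayed at or below 0.713 normalized CPM in every library. In bulk RNA, fewer cells with a transcript and less transcript per cell cannot be told apart.

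Levels of different genes were compared per kilobase of exon. In untreated Scr clones CCNG1 led with 35.7 ± 3.68 normalized CPM per kb (SD, n = 4), followed by PPM1D with 13.3 ± 1.06, MDM4 with 11.3 ± 0.260, TP73 with 8.43 ± 1.08 and MDM2 with 7.94 ± 0.683. RCHY1 (3.68 ± 0.105), PLK3 (2.60 ± 0.607) and PLK2 (1.42 ± 0.373) were the least abundant. The levels of TP73 and MDM2 were within their SDs of each other, whereas the other neighbours in this order were separated by more than their SDs. In doxorubicin-treated clones labelled KO the order was CCNG1 (70.3 ± 2.15), PPM1D (30.1 ± 3.38), MDM2 (24.4 ± 2.03), MDM4 (12.1 ± 2.42), PLK3 (10.4 ± 0.925), TP73 (9.81 ± 1.24), PLK2 (8.11 ± 0.694) and RCHY1 (3.45 ± 0.431). Between these groups MDM2 moved from the fifth to the third place, and MDM4, PLK3 and TP73 lay within their SDs of the next gene. The reads behind a single value ranged from 83 (PLK2, untreated KO28) to 5650 (MDM2, KO11 after doxorubicin), in libraries of 10481177 to 25086085 reads on genes. The limit set by a count of 0, taken as 3 reads, was 0.118 to 0.285 normalized CPM depending on the library, for counting error alone.

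**Figure D1:**
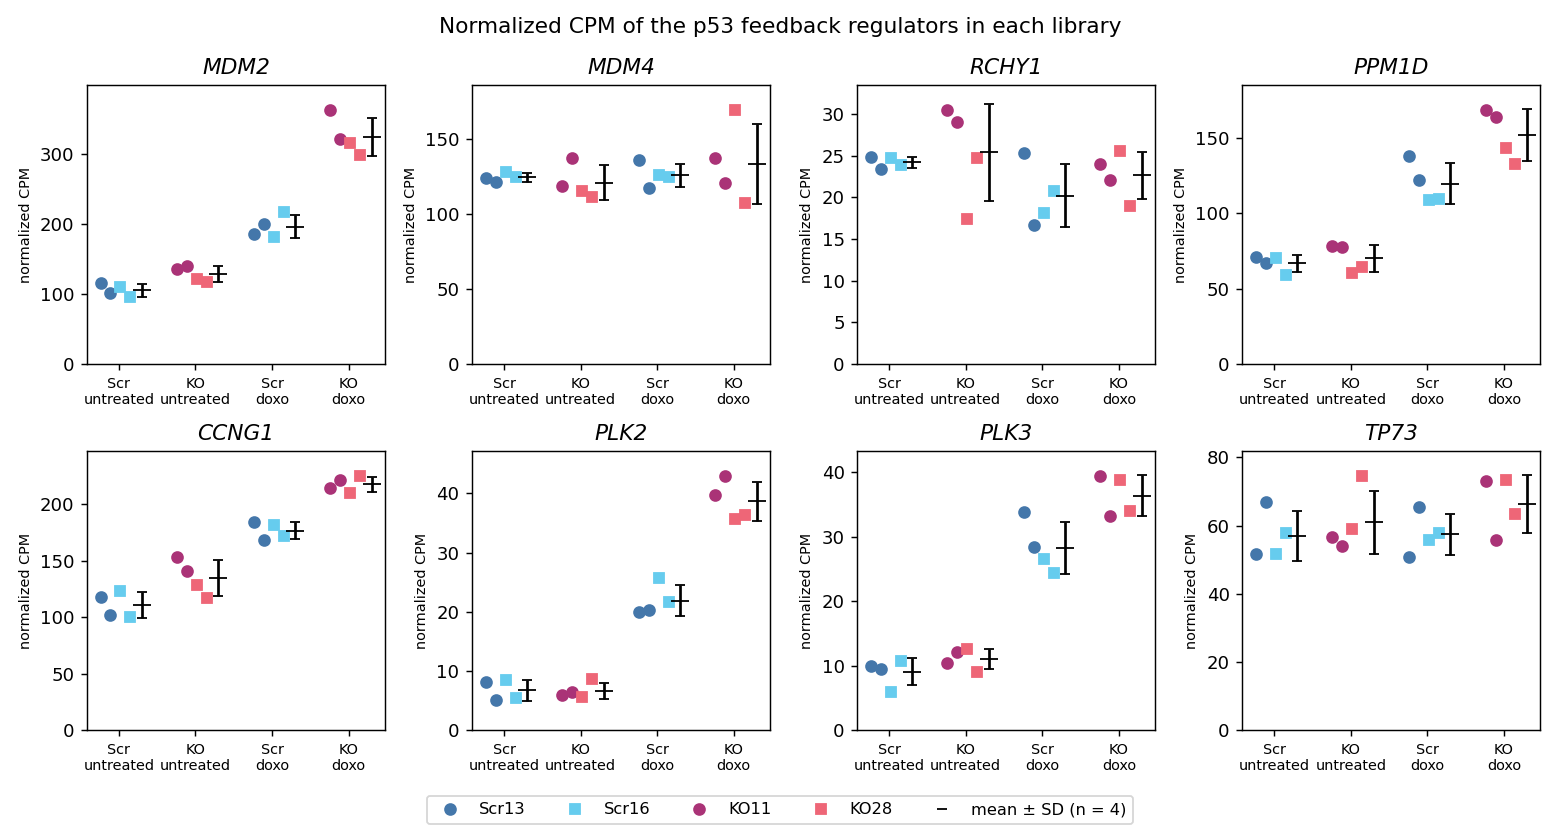
Normalized CPM (linear axes from 0) of the 8 measured genes in each of the 16 libraries, with colour and shape giving the clone and black marks the mean ± SD of 4 libraries per group. MDM2, PPM1D, CCNG1, PLK2 and PLK3 are higher after doxorubicin in every clone, and in MDM2, CCNG1 and PLK2 all 4 treated libraries labelled KO lie above all 4 treated Scr libraries.

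Doxorubicin raised 5 of the 8 measured genes in the Scr clones and the same 5 in the clones labelled KO. These were MDM2, PPM1D, CCNG1, PLK2 and PLK3, while MDM4, RCHY1 and TP73 did not pass the test in either. The test was limma on log2(normalized CPM + 1) over all 16 libraries, with Benjamini-Hochberg adjustment over 15325 genes and a threshold of 0.05, and log2 fold changes refer to that scale. Across all genes tested, 11.5% changed in the Scr clones (6.41% higher and 5.04% lower) and 16.6% in the clones labelled KO (9.67% higher and 6.95% lower). The median log2 fold change of the 8 genes was 0.75 in the Scr clones and 0.90 in the clones labelled KO, beside medians of -0.01 and 0.02 over all genes. Both sets of clones have their own untreated libraries in this comparison.

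MDM2 (ENSG00000135679), on chromosome 12 from 68808176 to 68850686, encodes the ubiquitin ligase that targets p53. In untreated Scr clones it was at 115 and 101 normalized CPM in Scr13 and 110.2 and 95.02 in Scr16. After doxorubicin it was at 185 and 199.6 in Scr13 and 181 and 217 in Scr16. In untreated clones labelled KO, MDM2 was at 136 and 140.4 in KO11 and 122 and 117 in KO28, and after doxorubicin at 362 and 321 in KO11 and 316 and 298 in KO28. The 4 groups did not overlap anywhere, and the treated libraries labelled KO stood clearly apart above the rest. MDM2 rose 1.84-fold in the Scr clones (log2 fold change 0.88, SE 0.083, limma adjusted p = 6.91e-09) and 2.51-fold in the clones labelled KO (1.33, SE 0.083, limma adjusted p = 8.71e-13). In exons MDM2 shares bases with AC025423.2 on its own strand and with AC025423.4 and CPM on the other, and since the strand setting of the counting is not given in the sources used here, a share of its reads could belong to them.

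MDM4 (ENSG00000198625, chromosome 1) encodes the MDM2 relative that binds p53 and blocks its activity. Its level was 124.4 ± 2.86 normalized CPM in untreated Scr clones, 120.8 ± 11.6 in untreated clones labelled KO, 125.9 ± 7.69 in treated Scr clones and 133.5 ± 26.6 in treated clones labelled KO (SD, n = 4 each). The widest pair was KO28 after doxorubicin, with 169 in one replicate and 107 in the other, the highest and the lowest of all 16 values. The response of MDM4 was 0.01 on the log2 scale in the Scr clones (95% interval -0.19 to 0.21) and 0.13 in the clones labelled KO (-0.07 to 0.33), so a rise above 1.26-fold lies outside both intervals. RCHY1 (ENSG00000163743, chromosome 4), also known as Pirh2, encodes another RING ubiquitin ligase of p53. Its level was 24.2 ± 0.690 in untreated and 20.2 ± 3.79 in treated Scr clones, and 25.4 ± 5.86 in untreated and 22.6 ± 2.83 in treated clones labelled KO. The responses of RCHY1 were -0.27 (95% interval -0.58 to 0.05) and -0.13 (-0.45 to 0.18) on the log2 scale, with the groups overlapping in both genotypes. RCHY1 shares exon bases with THAP6 on the opposite strand.

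PPM1D (ENSG00000170836, chromosome 17), known as Wip1, encodes a phosphatase that removes phosphate groups from p53 and from the kinases that activate it. In untreated Scr clones it was at 70.8 and 67.2 normalized CPM in Scr13 and 70.2 and 59.1 in Scr16, and after doxorubicin at 138 and 122 in Scr13 and 109.1 and 109.5 in Scr16. In untreated clones labelled KO, PPM1D was at 78.5 and 77.5 in KO11 and 60.4 and 64.1 in KO28, and after doxorubicin at 168 and 164 in KO11 and 143 and 132 in KO28. Every treated library lay above every untreated one, and KO11 was above KO28 in both treatments. PPM1D rose 1.77-fold in the Scr clones (log2 fold change 0.82, SE 0.099, limma adjusted p = 6.66e-07) and 2.16-fold in the clones labelled KO (1.11, SE 0.099, limma adjusted p = 1.38e-09).

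CCNG1 (ENSG00000113328, chromosome 5) encodes cyclin G1, which brings a protein phosphatase to MDM2. Its untreated level was 118 and 102 normalized CPM in Scr13 and 123 and 100 in Scr16, and its treated level 184 and 168 in Scr13 and 182 and 172 in Scr16. In the clones labelled KO, CCNG1 was at 153 and 141 in KO11 and 128 and 117 in KO28 untreated, and at 214 and 222 in KO11 and 210.2 and 225 in KO28 after doxorubicin. The treated values of CCNG1 were close within each genotype, while untreated KO11 and KO28 differed. CCNG1 rose 1.59-fold in the Scr clones (log2 fold change 0.67, SE 0.082, limma adjusted p = 8.62e-07) and 1.62-fold in the clones labelled KO (0.70, SE 0.082, limma adjusted p = 2.70e-07).

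PLK2 (ENSG00000145632, chromosome 5) and PLK3 (ENSG00000173846, chromosome 1) encode polo-like kinases that are induced by stress, unlike PLK1, the kinase of mitotic entry. PLK2 was at 8.11 and 5.07 normalized CPM in untreated Scr13 and 8.47 and 5.40 in untreated Scr16, and after doxorubicin at 19.9 and 20.3 in Scr13 and 25.7 and 21.6 in Scr16. In the clones labelled KO, PLK2 was at 5.95 and 6.45 in KO11 and 5.57 and 8.61 in KO28 untreated, and at 39.7 and 42.9 in KO11 and 35.7 and 36.4 in KO28 after doxorubicin. The untreated groups of PLK2 were interleaved, and the treated groups were separated by a gap. PLK2 rose 2.99-fold in the Scr clones (log2 fold change 1.58, SE 0.17, limma adjusted p = 9.13e-08) and 5.25-fold in the clones labelled KO (2.39, SE 0.17, limma adjusted p = 1.45e-11). The latter was the largest response among the 8 genes, while in the Scr clones PLK2 and PLK3 rose by nearly the same factor.

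PLK3 was at 10.0 and 9.56 normalized CPM in untreated Scr13 and 5.95 and 10.7 in untreated Scr16, and after doxorubicin at 33.9 and 28.3 in Scr13 and 26.5 and 24.3 in Scr16. In the clones labelled KO, PLK3 was at 10.4 and 12.1 in KO11 and 12.6 and 9.05 in KO28 untreated, and at 39.4 and 33.1 in KO11 and 38.9 and 34.0 in KO28 after doxorubicin. All treated values of PLK3 lay above all untreated ones, and 1 treated Scr library reached into the range of the treated libraries labelled KO. PLK3 rose 2.94-fold in the Scr clones (log2 fold change 1.56, SE 0.16, limma adjusted p = 3.90e-08) and 3.12-fold in the clones labelled KO (1.64, SE 0.16, limma adjusted p = 7.07e-09). PLK3 shares exon bases with TCTEX1D4 on the opposite strand.

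TP73 (ENSG00000078900, chromosome 1) encodes p73, a relative of p53 that binds similar DNA sites. It ranged from 51.5 to 67.0 normalized CPM in untreated and from 50.7 to 65.4 in treated Scr clones, and from 54.0 to 74.5 in untreated and from 55.8 to 73.3 in treated clones labelled KO. These 4 ranges overlapped, with 55.8 to 65.4 common to all. The responses of TP73 were 0.01 (95% interval -0.22 to 0.24) and 0.12 (-0.10 to 0.35) on the log2 scale, so neither interval reached the size of the smallest response among the 5 genes that rose. TP73 shares exon bases with TP73-AS1 on the opposite strand.

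For the 5 genes that rose, all 4 treated libraries lay above all 4 untreated libraries in both genotypes, an arrangement seen in 8.45% of all genes tested in the Scr clones and in 10.7% in the clones labelled KO. The response was then fitted for each clone on its own, with 2 libraries against 2 in 1 fit of all 16. The same 5 genes passed the test in each of the 4 clones, where 5.25% of all genes were called higher in KO11, 4.43% in KO28, 3.20% in Scr13 and 2.43% in Scr16. The log2 response of MDM2 was 0.83 in Scr13, 0.93 in Scr16, 1.30 in KO11 and 1.36 in KO28 (SE 0.11 each). That of PLK2 was 1.51 in Scr13, 1.65 in Scr16, 2.56 in KO11 and 2.22 in KO28 (SE 0.25 each). The clones labelled KO thus had the stronger response of both genes, and the same order held for PPM1D, with 0.91 and 0.74 in Scr13 and Scr16 and 1.08 and 1.14 in KO11 and KO28 (SE 0.11 each). PLK3 responded within a narrow range of 1.54 to 1.68 (SE 0.23 each), and CCNG1 ranged from 0.57 in KO11 to 0.83 in KO28 (SE 0.11 each), on either side of the Scr clones.

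**Figure D2:**
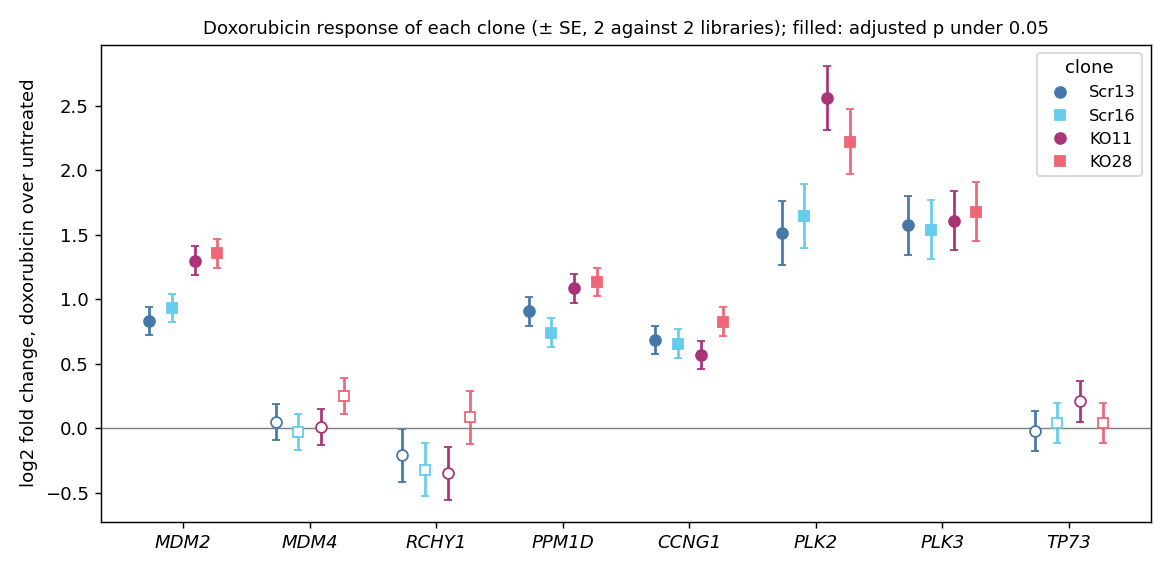
Log2 fold change of doxorubicin-treated over untreated libraries (y axis) for each gene in each of the 4 clones, with SE bars and filled symbols where the limma adjusted p was under 0.05. The responses of MDM2, PPM1D and PLK2 are larger in KO11 and KO28 than in Scr13 and Scr16, those of PLK3 lie together between 1.54 and 1.68, and MDM4, RCHY1 and TP73 have open symbols in every clone.

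Whether the response differed between genotypes was tested as the difference of the 2 responses over all 16 libraries. None of the 8 genes passed with limma (0 of 8), where 0.0196% of all genes tested, or 3 of 15325, did. At an unadjusted p under 0.05, MDM2 and PLK2 were the 2 genes of the 8, where 7.48% of all genes lay under it. For MDM2 the response was larger by 0.45 on the log2 scale in the clones labelled KO (95% interval 0.21 to 0.69, limma adjusted p = 0.216, unadjusted 6.80e-04), and for PLK2 by 0.81 (0.32 to 1.31, limma adjusted p = 0.306, unadjusted 0.00213). The difference was 0.29 for PPM1D (95% interval -0.000483 to 0.57), 0.03 for CCNG1 (-0.21 to 0.26) and 0.09 for PLK3 (-0.38 to 0.55). With edgeR's quasi-likelihood test and with DESeq2 on the recovered reads, 0 of 8 passed as well.

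Between genotypes after doxorubicin, 4 of the 8 genes were higher in the libraries labelled KO, and none was lower. These were MDM2, PLK2, PPM1D and CCNG1, so that the gene of the p53 ligase, a stress kinase, the p53 phosphatase and cyclin G1 stood higher together. Of all 14572 genes tested, 8.69% differed, 4.52% higher and 4.17% lower. The comparison shares its treated libraries with the responses above, and is not independent of them. The median log2 fold change was 0.32 for the 8 genes and 0.01 for all genes tested.

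MDM2 was 1.65-fold higher in the libraries labelled KO (323.9 ± 27.02 against 195.7 ± 16.2 normalized CPM, SD, n = 4 each), with a log2 fold change of 0.72 (SE 0.079, limma adjusted p = 1.66e-06). PLK2 was 1.74-fold higher (38.7 ± 3.31 against 21.9 ± 2.63), with a log2 fold change of 0.80 (SE 0.12, limma adjusted p = 1.30e-04). These 2 genes also differed in every alternative that left out a clone or a library. CCNG1 was 1.23-fold higher (217.6 ± 6.65 against 176.6 ± 7.85), with a log2 fold change of 0.30 (SE 0.069, limma adjusted p = 0.00668). In MDM2, PLK2 and CCNG1 the groups did not overlap, which was the case with the libraries labelled KO on top in 6.76% of all genes. The two-sided exact permutation test gave p = 0.0286 for each, the smallest that 4 against 4 allow. Here and below this test permutes libraries as if independent, although 2 come from each clone, so its p-values do not measure the spread between clones.

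PPM1D was 1.27-fold higher (152 ± 17.0 against 119.6 ± 13.5), with a log2 fold change of 0.34 (SE 0.092, limma adjusted p = 0.0195). Its groups overlapped, since Scr13 reached 138 and KO28 went down to 132 (exact permutation p = 0.0571). PLK3 was at 36.3 ± 3.22 against 28.3 ± 4.07 and did not pass (log2 fold change 0.36, SE 0.12, limma adjusted p = 0.0807, exact permutation p = 0.0571). TP73 (0.20), RCHY1 (0.16) and MDM4 (0.07) had log2 differences with 95% intervals that included 0. PPM1D lost its call in 7 of 21 alternatives (adjusted p from 0.00480 to 0.469 over all), among them reads summed per clone (log2 fold change 0.34, limma adjusted p = 0.0704), no filter (adjusted p = 0.195), without KO11 (log2 fold change 0.21, adjusted p = 0.469) and without Scr16 (log2 fold change 0.22, adjusted p = 0.223). CCNG1 kept its size of 0.30 without either clone labelled KO, at an adjusted p of 0.101 without KO11 and 0.0757 without KO28 (range over 21 alternatives 3.96e-04 to 0.101).

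**Figure D3:**
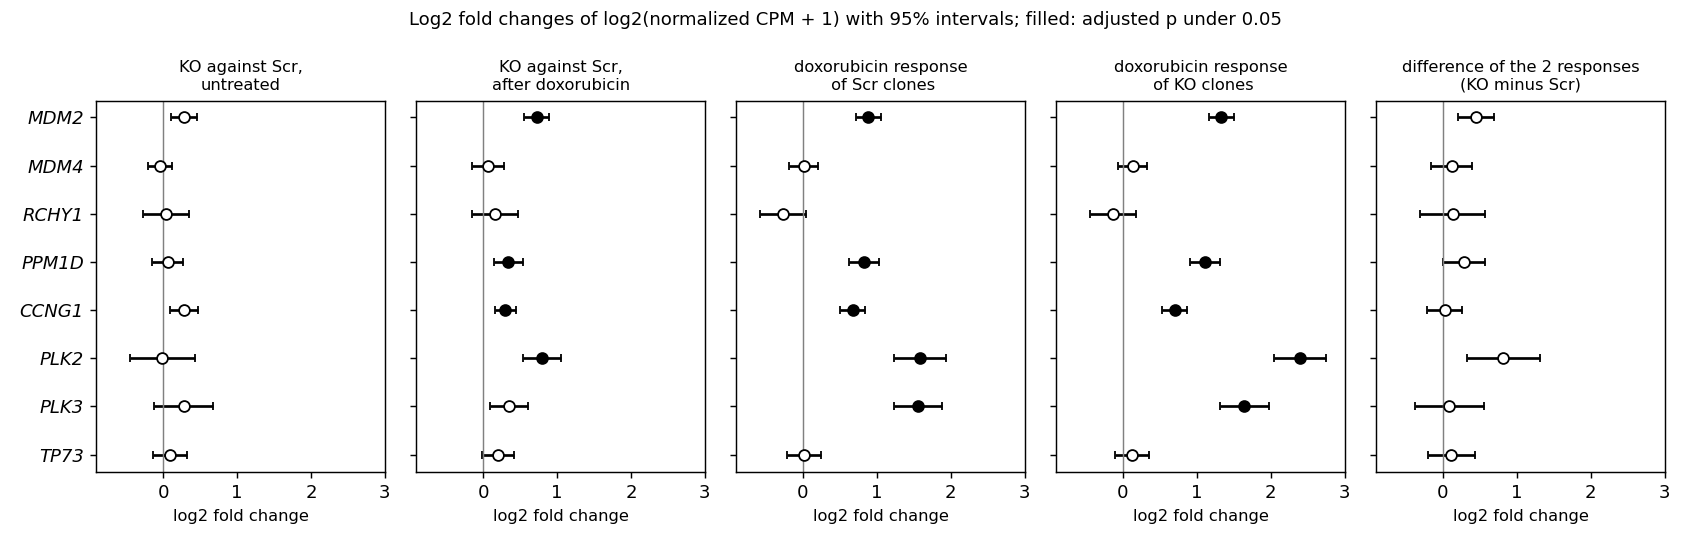
Log2 fold changes of the 8 genes (x axis, log2 of normalized CPM + 1) with 95% intervals in 5 panels, for genotype without treatment, genotype after doxorubicin, the responses of the Scr clones and of the clones labelled KO, and the difference of these responses. Filled symbols mark a limma adjusted p under 0.05, which 0, 4, 5, 5 and 0 of the 8 genes reached.

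Without treatment, 0 of the 8 genes passed the limma test between genotypes, where 4.84% of 14364 genes did (2.30% higher and 2.54% lower). At an unadjusted p under 0.05, MDM2 and CCNG1 were 2 of the 8, where 14.3% of all genes lay under it. The edgeR quasi-likelihood test called 0 and DESeq2 called 1, MDM2. MDM2 was at 128.7 ± 11.3 normalized CPM in the libraries labelled KO and 105.5 ± 9.08 in the Scr libraries (log2 fold change 0.28, SE 0.083, limma adjusted p = 0.0553). The lowest of the 4 libraries labelled KO, at 117, was above the highest Scr library, at 115, and such groups without overlap and with KO on top were seen in 4.29% of all genes (exact permutation p = 0.0286). CCNG1 was at 134.7 ± 15.8 against 110.6 ± 11.4 (log2 fold change 0.28, SE 0.091, limma adjusted p = 0.0956), and its groups overlapped. The CCNG1 difference passed without KO28 (0.41, limma adjusted p = 0.0147) and without KO28 untreated replicate 2 alone (0.35, limma adjusted p = 0.0238). Without KO11 it was 0.15 (limma adjusted p = 0.429). PLK2, which had the largest log2 difference of the 8 genes after doxorubicin, was at 6.64 ± 1.36 against 6.76 ± 1.78 without treatment (log2 fold change -0.01, 95% interval -0.45 to 0.44). PPM1D (0.06) and PLK3 (0.28) had 95% intervals that included 0, as did MDM4 (-0.05), TP73 (0.09) and RCHY1 (0.04). The MDM2 difference passed the test when KO28 was left out (0.39, adjusted p = 0.0135), and was 0.18 without KO11 (adjusted p = 0.299), within a range of 0.0135 to 0.437 over 21 alternatives.

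A list of 26 other p53 target genes was read beside these results. Doxorubicin raised 24 of 26 in the Scr clones, where 6.41% of all genes rose, and 25 of 26 in the clones labelled KO, where 9.67% did, with median log2 fold changes of 1.37 and 1.47. GDF15, a secreted stress cytokine, led in both (log2 fold changes 4.36 and 4.54). In the Scr clones CDKN1A, the gene of the cyclin-dependent kinase inhibitor p21 (2.57), and the apoptosis gene BBC3 (1.86) came next, and in the clones labelled KO the death receptor gene FAS (2.46) and CDKN1A (2.43). MDM2, PPM1D and CCNG1 therefore rose less than the median of these targets, and PLK2 and PLK3 rose more, in both genotypes. FAS missed the filter on low values among the untreated libraries. It entered the response test, and the counts of 24 and 25, only with the treated libraries, where it was higher, so its response is given as a value only. Summed over the list, the level was 751.9 to 933.5 normalized CPM in untreated Scr libraries, 1109 to 1207 in untreated libraries labelled KO, 1911 to 2437 in treated Scr libraries and 3366 to 3816 in treated libraries labelled KO. The 4 groups of sums did not overlap.

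Between genotypes, 12 of 25 tested targets were higher in the libraries labelled KO without treatment, where 2.30% of all genes were, and 21 of 26 after doxorubicin, where 4.52% were, and none was lower in either. The median log2 fold changes were 0.41 and 0.62, beside 0.08 and 0.32 for the 8 feedback genes. CDKN1A was higher by 1.27 without treatment (SE 0.14, limma adjusted p = 3.36e-06) and by 1.13 after doxorubicin (SE 0.076, limma adjusted p = 1.98e-09). Without treatment CDKN1A was the largest, before EDA2R, a death receptor of the TNF receptor family (0.95), and the mitochondrial gene SPATA18 (0.80). After doxorubicin TP53I3, an oxidoreductase gene (1.67), was the largest, and RRM2B, a subunit of ribonucleotide reductase (0.97), came after CDKN1A. Without the filter on low values, 3 targets were higher untreated and 11 after doxorubicin. Without Scr16 the untreated count was 5, without 1 library (Scr16 untreated replicate 1) it was 7, and over all alternatives it ranged from 3 to 17.

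**Figure D4:**
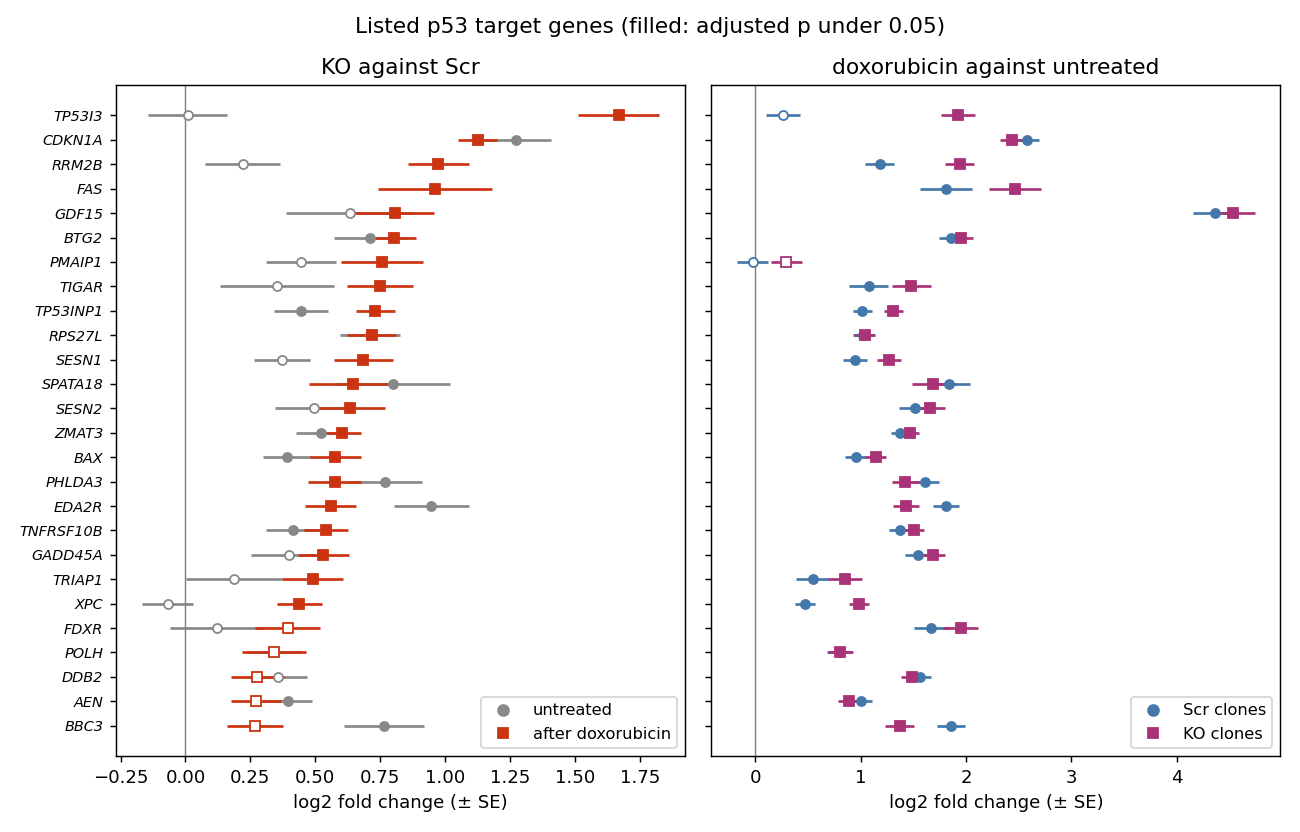
Log2 fold changes (x axis, ± SE) of the 26 listed p53 target genes, on the left for libraries labelled KO against Scr and on the right for doxorubicin against untreated, with filled symbols at a limma adjusted p under 0.05. Of the filled symbols on the left, 12 are untreated and 21 treated, all to the right of 0, and on the right 24 are of Scr clones and 25 of clones labelled KO.

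Of 20 genes whose products act on p53 or MDM2 by other routes, 19 were tested, and limma called 0 of them between genotypes after doxorubicin, where 8.69% of all genes were called (3 of the 19 had an unadjusted p under 0.05, beside 20.3% of all genes). Without treatment, where 4.84% of all genes were called, 1 was lower in the libraries labelled KO, COP1, a further ubiquitin ligase of p53 (log2 fold change -0.34, SE 0.076, limma adjusted p = 0.00843). In the Scr clones, where 11.5% of all genes changed, doxorubicin raised PML, the scaffold of nuclear bodies (0.47), and lowered GNL3, the nucleolar protein nucleostemin (fell by 0.42). In the clones labelled KO, with 16.6% of all genes changed, it raised 2, PML (0.51) and CUL9 (0.43), and lowered 3, TRIM28 (fell by 0.41), GNL3 (fell by 0.33) and UBE4B (fell by 0.20). The medians of the list were 0.07 in both comparisons of genotypes and 0.03 and 0.04 in the responses of the Scr clones and the clones labelled KO. RPL5, a ribosomal protein that binds MDM2 and the most abundant of the list, had log2 differences between genotypes of 0.08 untreated and 0.07 treated, and neither passed (limma adjusted p = 0.684 and 0.729).

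Family relatives of the members were 8 genes, of which 7 were tested. PLK1 was lower in the libraries labelled KO after doxorubicin (log2 fold change -0.69, SE 0.12, limma adjusted p = 4.80e-04), the direction opposite to PLK2, and fell by 0.63 with doxorubicin in the clones labelled KO (SE 0.11, limma adjusted p = 9.85e-05). CCNI, the gene of cyclin I, rose in the Scr clones (0.30, SE 0.070, limma adjusted p = 0.00409). Limma thus called 1 of the 7 between genotypes after doxorubicin, where 8.69% of all genes were called. It called 1 in each response, where 11.5% of all genes changed in the Scr clones and 16.6% in the clones labelled KO. These calls are therefore not a result about the relatives as a group. The other relatives, namely PLK4, CCNG2 and the phosphatase genes PPM1A, PPM1B and PPM1G, were not called in any of the 5 comparisons, and PLK5 was not abundant enough to be tested.

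Finally, the genes with the most similar pattern over the 16 libraries were sought, as the smallest root mean square difference in log2(normalized CPM + 1) after centring each gene on its mean. For MDM2 these were TP53INP1 (0.11), STK17A (0.14) and SESN1 (0.15), against an own variation of 0.63. For PLK2 they were GADD45A (0.32), PDE4C (0.33) and PLCD3 (0.34) against 1.05, and for PLK3 DDB2 (0.17), INKA2 (0.21) and TNFRSF10B (0.22) against 0.84. TP53INP1, SESN1, GADD45A, DDB2 and TNFRSF10B are also on the target list. PPM1D was nearest to SPRY2, ARHGAP30 and PARD6G (0.16 to 0.17 against 0.52), and CCNG1 to GCC2, TMEM68 and PTP4A1 (0.14 each against 0.39). For the members that did not pass the test of either response, the own variation was smaller, at 0.18 for TP73, 0.15 for MDM4 and 0.23 for RCHY1, and the nearest genes were ACTN4 for TP73 and DST for MDM4.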

How the data were processed

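Poly(A) RNA of 16 libraries was sequenced from a directional kit. Per the submitters' processing notes, HISAT2 2.1.0, HTSeq, edgeR and GRCh38 were used. The deposited signal is normalized CPM that the authors scaled per library, in 1 table per treatment. The deposited p-values, q-values and log2 fold changes of the authors' own comparison were not used. Whole reads were recovered for all values within 0.01 read. Exon lengths come from GENCODE 29, and promoter windows from RefSeq (GRCh38.p14).

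Genotypes were compared within a treatment by limma 3.58.1 (R 4.3.3), with a trend, on log2(normalized CPM + 1). Genes entered where 4 or more of the 8 libraries reached 1 normalized CPM. Responses and their difference used CPM rebuilt from the recovered reads with joint TMM scaling (ratio to the deposited values 0.992 to 1.01), in genes where 4 or more of 16 libraries reached 1. Adjusted p-values are Benjamini-Hochberg over all genes tested. The fit of all 16 libraries was checked on simulated counts. These had no differences between clones, so the check does not cover the spread between clones or the fits within a treatment.

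The members and lists were chosen with earlier results of these data known. Named are all members, TRPM2, CDKN1A, the 3 called genes of each list with the largest change per comparison, and the nearest genes of the members, of which those of RCHY1 are not reported here. RPL5, the marker genes, the relatives that were not called, and GNL3 and UBE4B in the response of the clones labelled KO were named after their values were seen. Alternatives were a pseudocount of 0.25, testing all genes, a minimum of 10 reads per library, edgeR 4.0.16 and DESeq2 1.42.0 on recovered reads, library size alone, a replicate block, the clone as a block, reads summed per clone, and each clone or library left out.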

Additional observations from a re-analysis of the deposited data

Results flagged for a closer look

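Among the listed p53 target genes, TP53I3 responded to doxorubicin differently in the 2 genotypes by a test of the difference itself. Its log2 response was 0.26 in the Scr clones (SE 0.16, limma adjusted p = 0.339) and 1.93 in the clones labelled KO (SE 0.16, limma adjusted p = 4.15e-10), a difference of 1.67 (SE 0.23, limma adjusted p = 6.60e-04). It was the 1 target of 26 called there, and was not called without KO11 or without Scr16. None of the 8 feedback genes passed that test. No library of a group of 4 stood apart from its group by Dixon's test in any of 36 groups of values (the 8 genes and TRPM2), where chance flags about 1 in 20.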

How the results depend on the processing

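The counts of 5 genes raised by doxorubicin in either genotype and of 0 in the difference of the responses stayed the same under the 31 alternatives run for each, and that of 20 calls by clone under the 2 run for it. After doxorubicin, the count of 4 genes between genotypes was 3 with reads summed per clone, 3 without a filter, 2 without KO11, 3 without KO28, 3 without Scr16, 5 without Scr13 and 3 to 5 with single libraries left out. Without treatment, the count of 0 was 1 with DESeq2, 2 without KO28 and 0 to 2 with single libraries left out. Replicate numbers are shared by the groups but did not pair the libraries (28 correlations of -0.10 to 0.12, of which 1 exceeded 0.1), and with a replicate block the untreated count was 1 (MDM2, limma adjusted p = 0.0499). The cause of these changes was not tested.

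Reversed log2 differences were those of genes that had not passed. Without KO28 they were -0.107 (CCNG1), -0.00539 (MDM4) and -0.0880 (RCHY1) for the difference of the responses, -0.000171 for the response of MDM4 in the clones labelled KO, and 0.0406 (MDM4) and -0.0349 (TP73) between untreated genotypes. Without KO11 they were 0.0624 (PLK2), -0.0973 (PPM1D) and -0.212 (RCHY1) between untreated genotypes and 0.0796 for the response of RCHY1 in KO28. The untreated difference of PLK2 was 0.0241 without Scr16, and the Scr responses were -0.0209 (MDM4) without Scr13 and -0.0303 (TP73) without Scr16, and -0.0115 (MDM4) and -0.0130 (TP73) with library size alone. With single libraries left out, the difference of the responses spanned -0.0433 to 0.0902 (CCNG1), -0.00105 to 0.2497 (PLK3) and -0.0325 to 0.241 (RCHY1). The Scr responses spanned -0.0250 to 0.0352 (MDM4) and -0.0629 to 0.0889 (TP73). Between genotypes the spans were -0.0533 to 0.163 for treated MDM4 and, untreated, -0.124 to 0.0964 (PLK2), -0.0574 to 0.201 (RCHY1) and -0.00474 to 0.173 (TP73).

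PLK3 after doxorubicin passed without Scr13 (adjusted p = 0.0299) and without its replicate 1 (0.0283), within a range of 0.0283 to 0.382 over 21 alternatives. Of all genes, the 1266 called after doxorubicin became 610 without a filter, 538 without KO11 and 611 without KO28, and the 695 untreated became 269, 340 without Scr13 and 333 without Scr16. The responses called 1755 genes in the Scr clones, 454 without Scr13 and 774 without Scr16, and 2547 in the clones labelled KO, 858 without KO11 and 1321 without KO28. The 3 genes called for the difference of the responses ranged from 0 to 31, the latter with DESeq2. The 12 untreated p53 targets became 7 with reads summed per clone.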
